A study of Mus musculus with 22 samples.

Results

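Liver expression of 10 genes that build, carry and remodel plasma lipoproteins was followed across 22 two-colour Agilent arrays. The members were every non-control probe whose gene name in the array files was Apoa1, Apoa2, Apoa4, Apoa5, Apob, Apoc3, Apoe, Mttp, Lipc or Lcat. That gave 16 probes of 41174 on the array: 5 for Apob, 2 each for Apoa5 and Apoc3, and 1 for each of the other genes. All 16 were well above background on all 8 newborn and all 14 adult arrays, apart from spots set to missing, and all entered both fits.

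The study removed Tcf7l2, which encodes TCF4, a transcription factor that works with beta-catenin in Wnt signalling, and compared livers with 1 liver sample per array. In the newborn set, 4 Tcf7l2-/- pups were compared with 4 Tcf7l2+/+ pups. All received 50 ul of 10% glucose under the skin, and livers were taken at 5 h. All mice of the series, adults included, were C57BL/6. In the adult set, the knockouts were Tcf7l2loxp/loxp;SA-CreERT2 mice (LTCF4KO) and the controls Tcf7l2loxp/loxp mice without Cre. Both adult genotypes were given tamoxifen at 3 weeks of age and studied 1 to 2 months later, either after a 24 h fast (4 knockouts and 4 controls) or fed (3 knockouts and 3 controls). The labels name the CreERT2 allele only as SA and do not say in which cells it acts. Samples of a group are called biological replicates in the labels. Cy3 marked the liver RNA and Cy5 a mouse reference RNA on the same array, in 1 orientation only, so each value is log2 of liver over reference. The newborn genotypes lay on a slide each, so slide and genotype cannot be told apart there. Fasted and fed livers likewise lay on different slides, so feeding and slide cannot be told apart.

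The liver packages triglyceride and cholesteryl ester into very low density lipoprotein around apolipoprotein B (Apob), with the help of the microsomal triglyceride transfer protein (Mttp). High density lipoprotein is built on apolipoproteins A-I and A-II (Apoa1, Apoa2). Apolipoproteins C-III, A-IV, A-V and E move between particles and set how fast triglyceride is cleared, hepatic lipase (Lipc) remodels particles, and lecithin-cholesterol acyltransferase (Lcat) esterifies cholesterol on high density lipoprotein. These proteins are made mainly by hepatocytes, and several of them also by enterocytes.

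Of the 10 genes, 4 lie in a cluster on mouse chromosome 9. On build mm9, which the array files use, the probes were at chr9:46037921-46037980 for Apoa1, chr9:46041353-46041412 and chr9:46041363-46041422 for Apoc3, chr9:46049661-46050404 for Apoa4, and chr9:46078579-46078638 and chr9:46079082-46079141 for Apoa5. The Apoc3 probes overlap, so they are nearly the same measurement. Lipc is also on chromosome 9, outside the cluster, at chr9:70660699-70664375. The Apob probes were spread along the gene from chr12:8005482-8007691 to chr12:8023194-8023253. The other probes were at chr1:173155858-173155917 (Apoa2), chr7:20281732-20281791 (Apoe), chr3:137757948-137758007 (Mttp) and chr8:108463857-108463916 (Lcat). The spans of Apoa4, Lipc and the first Apob probe are wider than those of the other probes. An mm9 annotation of exons and UTRs was not used here.

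Promoter sequences are shown for the genes on which the comparisons turn (Mttp, Apoa2, Apob and Apoa5) and for Lipc, which held the only long motif found. They are the 250 bases before a RefSeq start on build GRCm38.p6, written 5′ to 3′ on the strand of the gene. Capitals mark CTTTGA in either orientation, a core of the TCF/LEF site, except in Lipc, where they mark TGACCTTTG, part of a direct repeat bound by nuclear receptors. They lie at chr3:138143419-138143668 (Mttp, minus strand), chr1:171224804-171225053 (Apoa2, plus), chr12:7977427-7977676 (Apob, plus), chr9:46268358-46268607 (Apoa5, plus) and chr9:70934809-70935058 (Lipc, minus).
Mttp: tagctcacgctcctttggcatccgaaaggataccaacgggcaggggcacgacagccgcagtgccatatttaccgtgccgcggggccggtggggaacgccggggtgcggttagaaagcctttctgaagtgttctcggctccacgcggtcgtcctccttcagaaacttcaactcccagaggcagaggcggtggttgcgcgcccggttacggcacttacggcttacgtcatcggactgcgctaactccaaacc
Apoa2: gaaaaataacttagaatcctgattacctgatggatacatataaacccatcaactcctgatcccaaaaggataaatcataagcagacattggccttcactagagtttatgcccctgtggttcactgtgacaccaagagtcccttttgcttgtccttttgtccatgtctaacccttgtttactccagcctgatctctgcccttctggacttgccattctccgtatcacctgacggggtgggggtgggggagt
Apob: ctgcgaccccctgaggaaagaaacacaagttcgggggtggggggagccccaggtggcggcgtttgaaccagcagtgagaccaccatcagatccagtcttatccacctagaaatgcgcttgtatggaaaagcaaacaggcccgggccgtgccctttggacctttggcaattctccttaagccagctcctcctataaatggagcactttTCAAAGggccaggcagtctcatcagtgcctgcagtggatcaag
Apoa5: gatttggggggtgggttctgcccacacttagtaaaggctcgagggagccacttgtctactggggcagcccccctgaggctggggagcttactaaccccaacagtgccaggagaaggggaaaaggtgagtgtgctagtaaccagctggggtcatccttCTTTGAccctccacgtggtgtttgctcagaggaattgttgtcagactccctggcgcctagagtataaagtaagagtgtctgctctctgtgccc
Lipc: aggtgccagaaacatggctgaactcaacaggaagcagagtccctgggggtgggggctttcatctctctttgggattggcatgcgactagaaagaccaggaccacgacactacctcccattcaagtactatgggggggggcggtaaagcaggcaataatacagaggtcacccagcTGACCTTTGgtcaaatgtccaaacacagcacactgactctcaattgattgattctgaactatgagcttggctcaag
RefSeq promoters were matched for 9 of the 10 genes, in 14 windows that also take in 50 bases after the start. The TCF/LEF heptamer CTTTGAT, searched on both strands, was in none of the 14 windows and in 3.73% of all 32851 promoters. CAAAGTCCA, a site for HNF4A, was in none and in 0.475% of all promoters. TGACCTTTG was in 1 of the 14, 76 bases before the second Lipc start of the table, and in 0.478% of all promoters. The shorter CTTTGA, part of the heptamer and searched afterwards, was in 3 windows, 43 bases before the Apob start and in both overlapping Apoa5 windows, and in 16.0% of all promoters. A match of letters is a description of these windows and not a measured binding site.

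Signal and labels were checked across the whole array first. The share of liver-channel spots well above background was 50.2% to 64.4% on newborn arrays, 50.2% to 62.0% on fasted arrays and 22.8% to 31.2% on fed arrays. Of 3 Tcf7l2 probes, the 2 tested in newborns changed on the ratio by -0.87 ± 0.19 (SE, adjusted p = 0.0612) and 0.08 ± 0.12 (adjusted p = 0.861) in knockouts over wild types, and none of the 3 passed on the ratio in adults (limma). In the liver channel alone the first of them changed by -0.83 in newborn knockouts and passed (limma, adjusted p = 0.0259). Whether these probes lie in the deleted part is not given in the sources used here. The 8 hepatocyte markers measured, Alb among them, all cleared background on the 22 arrays. Of 8 enterocyte markers, 4 were well above background on no newborn array (Cdx1, Cdx2, Cdh17, Reg3g) and 6 on no adult array (the same 4, Sis and Lct). Parts of 2 arrays were dim in both channels. By a neighbourhood measure, 17.2% of the spots of fasted control 3 and 7.44% of those of fasted knockout 1 deviated from the other arrays by more than 1 log2 unit, among them the Apoa4 spot of fasted control 3 and the Apoa2 and Lcat spots of fasted knockout 1.

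**Figure D1:**
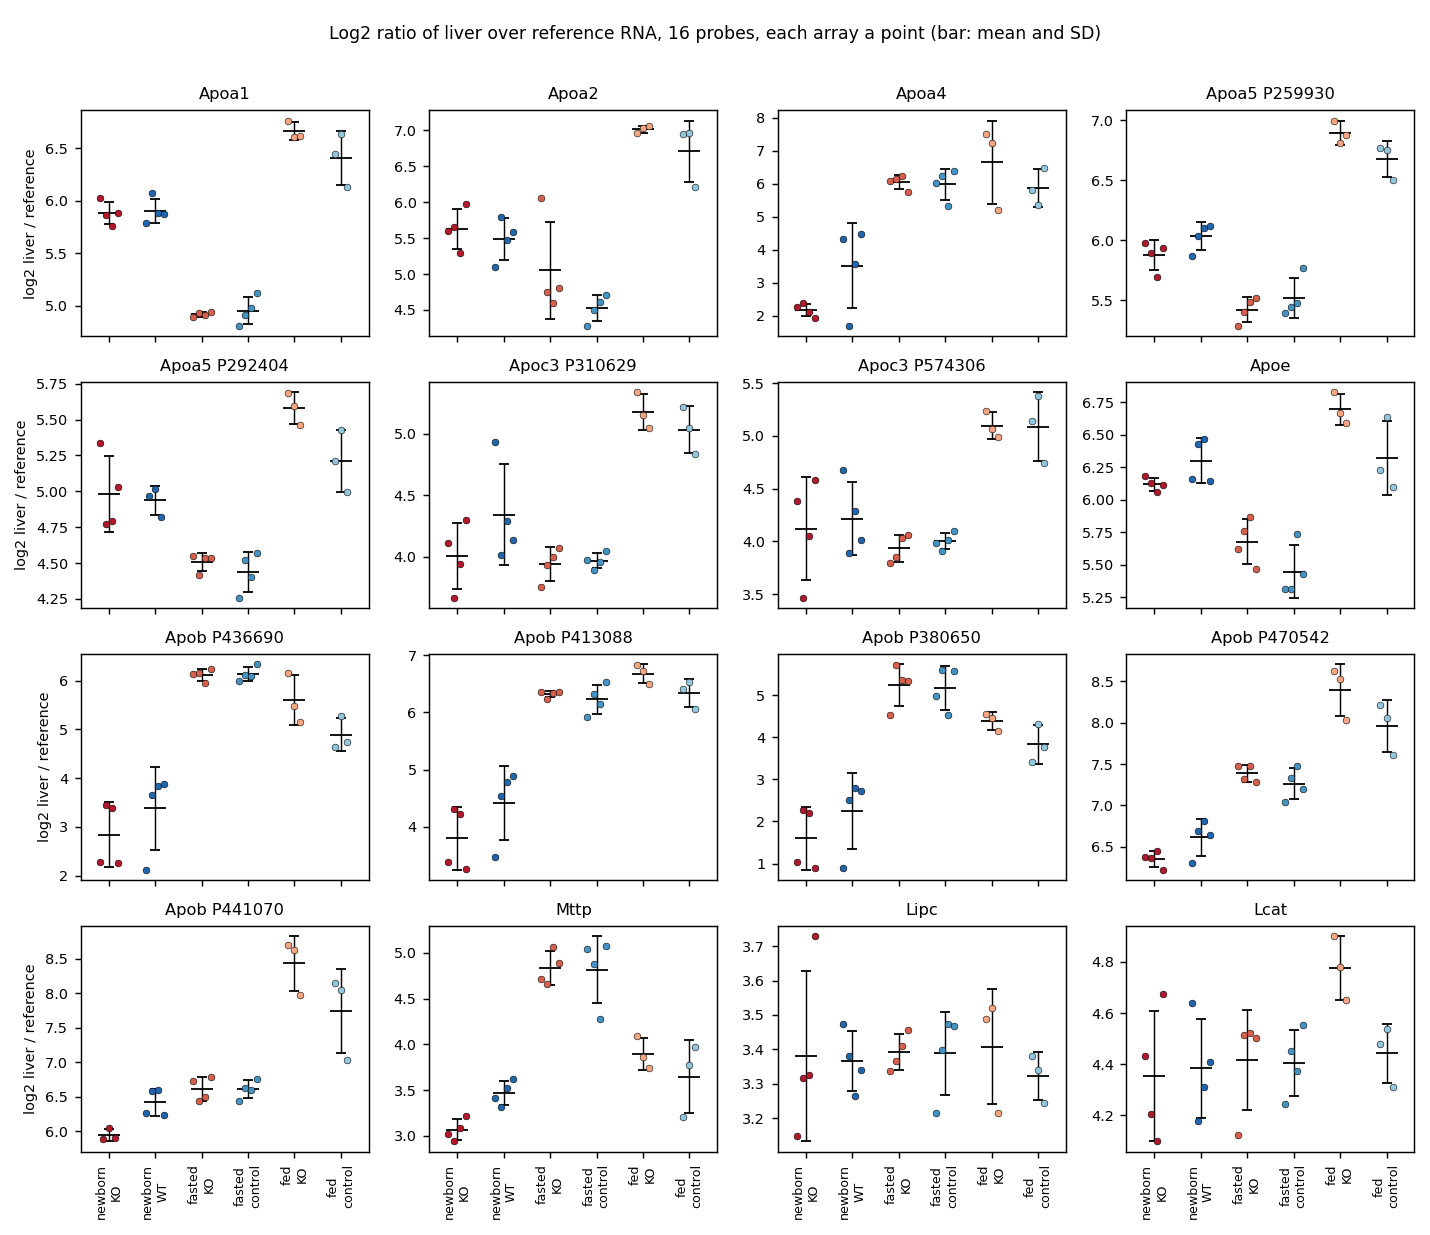
Log2 ratio of liver over reference for each of the 16 probes (1 panel each, y axis) in the 6 groups (x axis); each point is 1 array, and the bar gives the mean and SD. Apoa1 lies near 4.9 in both fasted groups and between 6.13 and 6.76 in both fed groups, Mttp is higher in the fasted than in the fed groups, and Apoa4 differs most between mice of 1 group.

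Several members, among them Apoe, Apoa1 and Apoa2, gave some of the brightest spots of the array, and both channels have to be read for them. Apoe, the ligand by which remnants are taken up, gave raw liver intensities of 350577 to 470708 on newborn arrays and 227418 to 258391 on adult arrays, which was 77.3% to 90.1% of the brightest spot of each adult array. Feature Extraction marked no spot as saturated in either channel. The adult values of Apoe therefore lie near the brightest spots of their own arrays, and whether that bears on its changes was not tested.

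The reference channel, which held the same commercial RNA on every array, did not stay constant at these probes. At Apoc3, an inhibitor of triglyceride clearance, raw liver intensities of probe A_51_P310629 were 70195 to 206138 on adult arrays, against 2055 to 13872 on newborn arrays. The reference channel of the same spots read 10474 to 34699 on adult arrays, against 393 to 1345 on newborn arrays. The log2 ratio was therefore nearly the same at both ages, with medians of 4.06 on adult and 4.12 on newborn arrays, although the liver signal did not overlap between them. Within the newborns the same pairing appeared: knockout 2 and wild type 2 were lowest in the liver channel (2055 and 2101) and in the reference channel (393 and 398). Over the 16 probes, the median over arrays of the reference signal was between 2.59% and 43.4% of the liver signal. The raw log2 channels correlated over the 22 arrays at 0.093 to 0.99 (Pearson, median 0.91), beside a median of 0.55 for 22058 probes. Apoc3 A_52_P574306 was the highest member, and Apob A_51_P380650 the lowest. Why the reference channel moved with the liver channel was not tested. For this reason a direction is given for a member only where the ratio passed the test and the liver channel alone, quantile normalized between arrays, had the same sign.

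**Figure D2:**
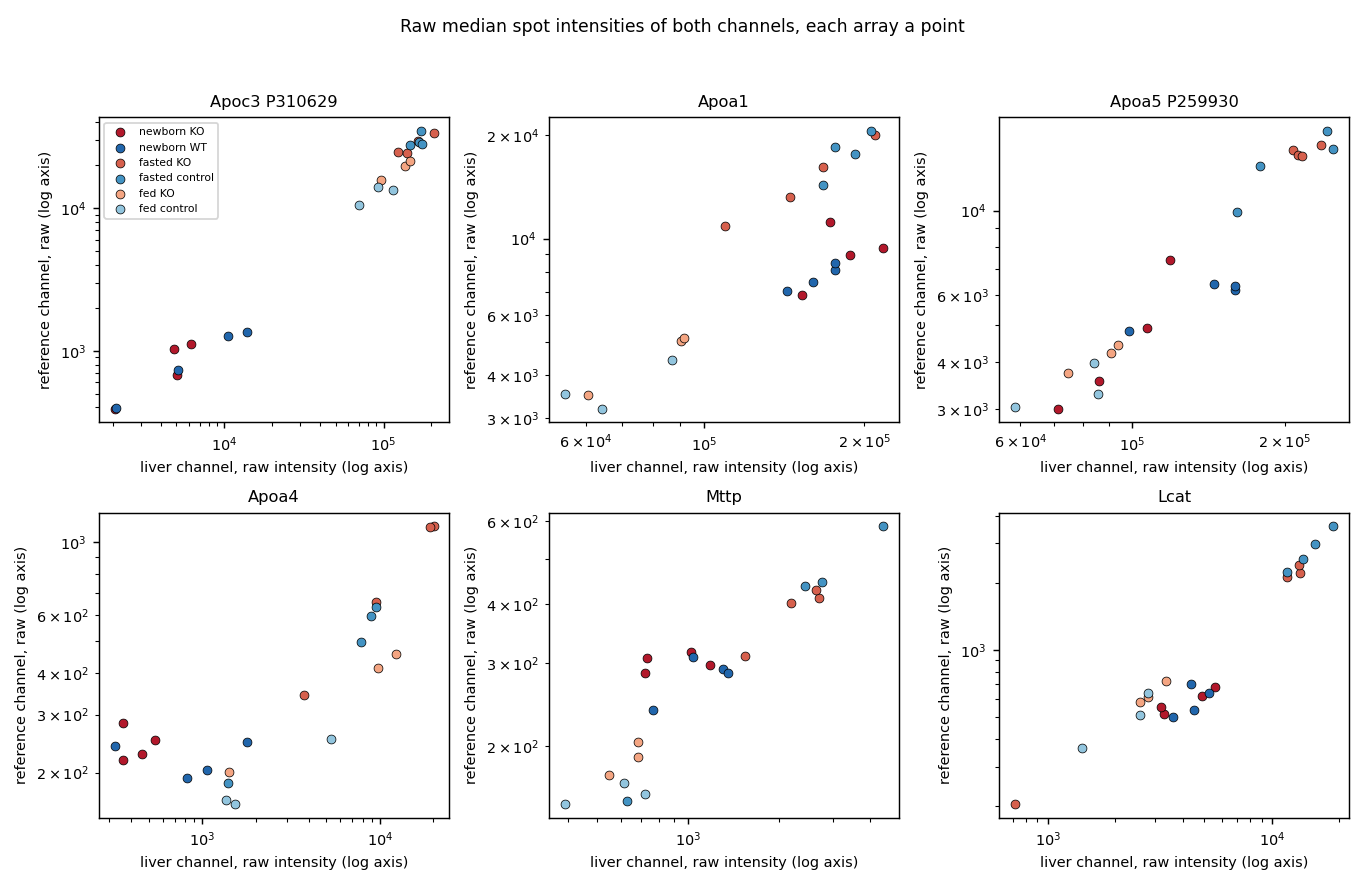
Raw median spot intensity of the reference channel (y, log axis) against the liver channel (x, log axis) for 6 probes; each point is 1 of 22 arrays, coloured by group. At Apoc3 the adult arrays lie above the newborn arrays in both channels, and at Lcat the fasted arrays other than fasted knockout 1 lie above the fed arrays in both.

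Between ages, which differ in slides and in genotype construct and were not tested against each other, Apoa4 and Apob stood apart from the rest on the ratio. Apoa4, an apolipoprotein of chylomicrons and high density lipoprotein, had log2 ratios of 5.20 to 7.52 on adult arrays, against 1.68 to 4.47 on newborn arrays. The Apob probe A_51_P436690 had 4.64 to 6.34 on adult arrays, against 2.12 to 3.88 on newborn arrays. The reference channel behind these ratios was weak. Its raw intensity at this Apob probe was 165 to 177 on newborn and 110.5 to 214.5 on adult arrays. At Apoa4 it was 193 to 283 on newborn arrays, where the median reference spot read 262 to 381. How far background correction sets these ratios was not tested. Lipc and Lcat spanned nearly the same values at both ages, with Lipc at 3.21 to 3.52 on adult and 3.15 to 3.73 on newborn arrays.

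No member passed the test between newborn genotypes. The count was 0 of 16 probes on the ratio (limma, smallest adjusted p = 0.13; 3 probes had an unadjusted p under 0.05) and 0 of 16 in the liver channel alone, where 1.15% and 4.76% of the 24421 probes tested were called. The values leaned down: 13 of 16 probes, 5 of which read Apob, were lower in knockouts. Their median change was -0.22, beside -0.03 for all probes tested, of which 44.6% lay above 0. In the liver channel 15 of 16 were lower, with a median of -0.34, beside -0.05 for all probes, of which 42.6% lay above 0. Of the 8 hepatocyte markers, 0 lay above 0 on the ratio (median -0.06, liver channel 0.07). In the reference channel 14.2% of all probes were called between these slides, among them 1 member, Lipc (-0.46 ± 0.11, adjusted p = 0.028).

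Mttp, which loads lipid onto apolipoprotein B, had the smallest p of the members in newborns. Its log2 ratios were 3.02, 2.94, 3.09 and 3.22 in knockout pups, against 3.42, 3.32, 3.52 and 3.63 in wild-type pups, so that every knockout lay below every wild type. The difference was -0.40 ± 0.11 (SE, n = 4 each, adjusted p = 0.13) and did not pass. In the liver channel alone the groups overlapped and differed by -0.27 ± 0.12 (adjusted p = 0.215). Ranges that did not overlap were found for 8.84% of all probes.

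Apoa4 had the largest newborn difference and the largest spread. Its log2 ratios were 2.26, 2.38, 2.11 and 1.94 in knockout pups, against 4.33, 1.68, 3.58 and 4.47 in wild-type pups. Knockouts were uniformly low and wild types varied, with wild type 2 below every knockout. The difference was -1.35 ± 0.52 (adjusted p = 0.311), or -1.07 ± 0.48 in the liver channel alone (adjusted p = 0.241), and neither passed. Without wild type 2 it was -1.96 and passed (adjusted p = 0.0202).

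The values of all 5 Apob probes were below 0 in newborn knockouts over wild types, at -0.64 to -0.26, and none passed. The last probe along the chromosome, A_52_P441070, had 5.88, 6.05 and 5.90 in 3 knockouts (1 spot was missing), against 6.26, 6.58, 6.60 and 6.23 in wild types. Every knockout was below every wild type on the ratio (-0.47 ± 0.14, adjusted p = 0.162), whereas the liver channel alone differed by -0.02 ± 0.26. The first 3 probes along the gene varied within both groups instead. At A_51_P380650 the ratios were 1.03, 2.28, 2.21 and 0.88 in knockouts, against 0.89, 2.52, 2.80 and 2.73 in wild types. Knockouts 1 and 4 and wild type 1 were the low arrays there and at the 2 probes before it. Without these 3 arrays, which were picked by their Apob values, no member passed either. That left so few newborn arrays that little could have passed, and no conclusion is drawn from it.

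The remaining newborn members differed little on the ratio. Apoa1 and Apoa2, the scaffold proteins of high density lipoprotein, changed by -0.02 ± 0.11 and 0.14 ± 0.18. The Apoc3 probes changed by -0.34 ± 0.21 and -0.10 ± 0.25, Apoe by -0.18 ± 0.11, Lcat by -0.03 ± 0.15 and Lipc by 0.01 ± 0.13. Apoa5, an activator of triglyceride clearance, changed by -0.15 ± 0.11 and 0.05 ± 0.16 at its probes. Read in the liver channel alone, the Apoa5 probes changed by -0.49 ± 0.26 (adjusted p = 0.313) and -0.78 ± 0.29 (adjusted p = 0.17), and their reference channel by -0.44 and -0.83. The Apoc3 probes changed by -0.54 ± 0.68 and -0.42 ± 0.66 in the liver channel, and none of these passed. The 95% interval of Apoa1 ran from -0.26 to 0.22 and that of Lipc from -0.29 to 0.32.

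**Figure D3:**
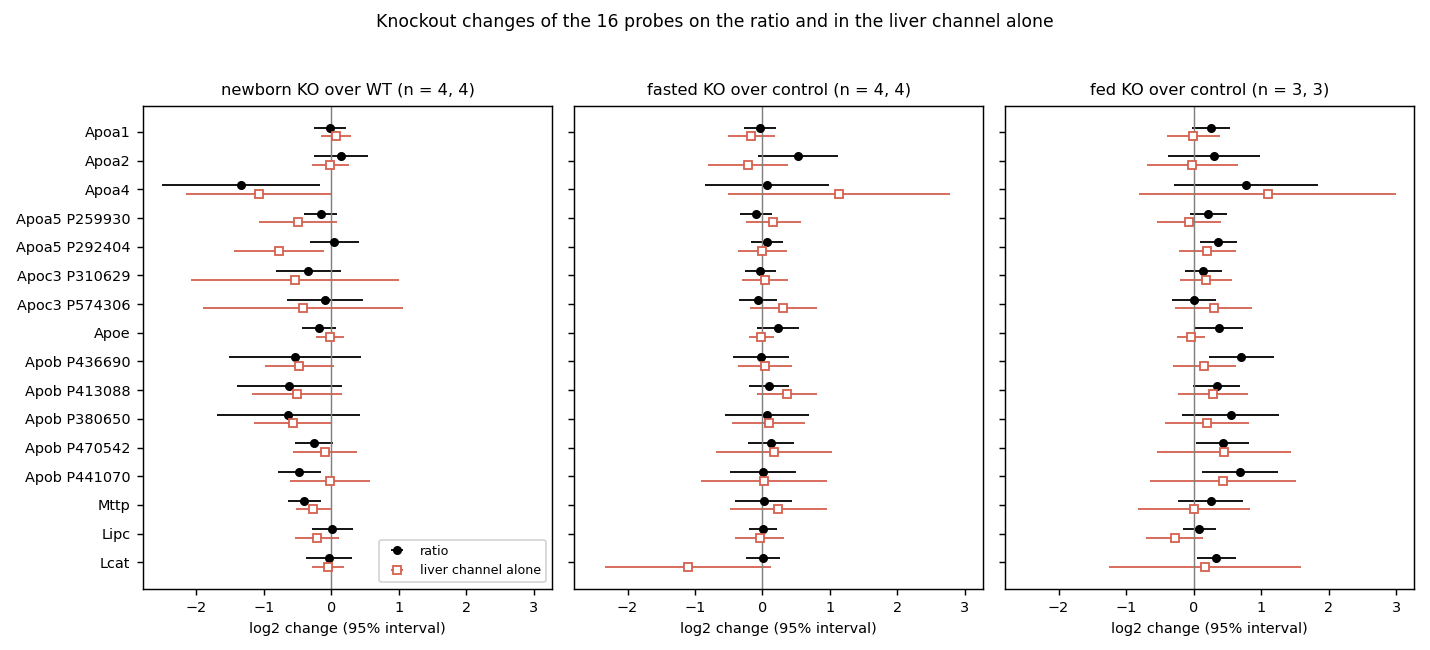
Log2 change in knockouts over wild types or controls (x axis, 95% interval) of the 16 probes (rows) in newborn, fasted and fed livers, on the ratio (filled circles) and in the liver channel alone (open squares). None passed after adjustment. Newborn points lie mostly left of 0, fasted points around 0, and the fed ratio points all right of 0 with liver-channel points on both sides.

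In fasted adults the knockout values lay close to those of controls. The count was 0 of 16 probes on the ratio (limma, smallest adjusted p = 0.538, no unadjusted p under 0.05) and 0 of 16 in the liver channel alone, where 0.433% of 25147 probes were called on the ratio and 0.41% in the liver channel. Ranges of 0 members did not overlap, and those of 6.26% of all probes did not. The median change of the members was 0.01. Mttp had log2 ratios of 4.72, 4.67, 5.07 and 4.89 in fasted knockouts, against 5.04, 4.88, 4.28 and 5.07 in fasted controls, which overlapped (0.02 ± 0.20, 95% interval -0.41 to 0.44). Apoa1 had 4.89, 4.93, 4.91 and 4.94 in fasted knockouts, against 4.80, 4.91, 4.98 and 5.12 in fasted controls (-0.04 ± 0.11). The 5 Apob probes changed by -0.02 to 0.13. Summed markers of pancreas and fat were 2994, 43058, 19569 and 2341 intensity units in fasted knockouts, against 3234, 2434, 1922 and 2402 in fasted controls. Fasted knockouts 2 and 3 stood apart there, and Cela1, Cel and Ctrb1, genes of pancreatic enzymes, were at 1.93, 1.85 and 1.35 on the ratio without passing (adjusted p = 0.466, 0.488 and 0.433). Without these 2 arrays the member count by genotype was again 0, and with fasting in knockouts it was 10 (1 higher, 9 lower), the calls of Apob A_51_P380650 and Lcat being lost (0.54, adjusted p = 0.307, and -0.46, adjusted p = 0.0548).

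Dim areas lay under 2 of the fasted values. Apoa2 had 6.05, 4.75, 4.60 and 4.81 in fasted knockouts, against 4.28, 4.50, 4.61 and 4.71 in fasted controls, and knockout 1 alone lay above all others. The difference of 0.53 ± 0.27 (adjusted p = 0.538) was 0.19 with the dim spots set to missing. Lcat had raw liver intensities of 714, 13352, 13200 and 11729 in fasted knockouts, against 18839, 15577, 13708 and 11725 in fasted controls, so that knockout 1 was far below the other 7 arrays. The liver-channel change of -1.10 ± 0.57 was -0.26 with that spot missing. Both slides of the fasted set held both genotypes, and the median member change was 0.04 within each slide.

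In fed adults all 16 members had a higher ratio in knockouts, and none passed. The smallest adjusted p was 0.43, 6 probes had an unadjusted p under 0.05, and 0.215% of all probes were called (limma). The median change was 0.34, beside 0.03 for all probes tested, of which 56% lay above 0. The liver channel alone gave another picture: 11 of 16 were above 0, with a median of 0.18, and 0 of 16 passed (0.258% of all probes). All 8 hepatocyte markers were also above 0 on the ratio in fed knockouts (median 0.47, liver channel 0.20). Within slide 5, with 2 knockouts and 1 control, 16 of 16 members were above 0 (median 0.36), and within slide 6, with 1 knockout and 2 controls, 12 of 16 (median 0.20).

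The fed members with an unadjusted p under 0.05 were Apob at 3 probes, Apoa5, Apoe and Lcat. Apob A_51_P436690 had 6.16, 5.49 and 5.15 in fed knockouts, against 4.64, 5.27 and 4.75 in fed controls (0.71 ± 0.22, n = 3 each, adjusted p = 0.43), and the liver channel alone gave 0.16 ± 0.22. Apoa5 A_52_P292404 had 5.68, 5.59 and 5.46 in fed knockouts, against 5.21, 5.43 and 4.99 in fed controls (0.37 ± 0.13, adjusted p = 0.514), and the groups did not overlap. Lcat had 4.90, 4.78 and 4.65 in fed knockouts, against 4.48, 4.54 and 4.31 in fed controls, again without overlap (0.33 ± 0.13, adjusted p = 0.634). Ranges of 3 members did not overlap, and neither did those of 10.9% of all probes.

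Apoa4 varied most among fed mice. Its raw liver intensities were 12380, 9799 and 1418 in fed knockouts, against 1541, 1368 and 5305 in fed controls. In log2 ratios these were 7.52, 7.24 and 5.20 in knockouts, against 5.81, 5.34 and 6.48 in controls. The high and low mice were found in both genotypes, and the difference of 0.78 ± 0.49 did not pass (adjusted p = 0.912). The sign also turned between slides, at 1.57 within slide 5 and -0.71 within slide 6.

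The genotype by fasting interaction was called for 0 of 16 probes (smallest adjusted p = 0.726, 1 unadjusted p under 0.05, 0.0119% of all probes called). It was below 0 for 15 of 16 on the ratio and for 9 of 16 in the liver channel alone. Of all probes, 46.3% lay above 0 on the ratio and 47.5% in the liver channel.

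Fasting was the comparison with calls, and they have to be read against a moving background. On the ratio 12 of 16 probes were called in knockouts (2 higher, 10 lower in fasted livers) and 12 of 16 in controls (3 higher, 9 lower). Of all probes, 35.6% were called in knockouts and 37.9% in controls, and lower calls were 15.9% in knockouts and 15.7% in controls, higher calls 19.6% and 22.2%. The reference channel alone was called for 57.5% of all probes in knockouts and 60.5% in controls, although it held the same RNA. Of the 12 member calls in each genotype, 6 had the opposite sign in the liver channel alone, which held for 10.1% of all probes in knockouts and 10.3% in controls. Calls on both scales with opposite signs were 2 members in knockouts (2.89% of all probes) and 3 in controls (3.5%). The liver channel alone gave 4 member calls in each genotype, where 31.8% of all probes were called in knockouts and 40.8% in controls. Fasted and fed ranges of 12 members did not overlap in each genotype, nor did those of 42.2% of all probes in knockouts and 44.5% in controls. A further scale was the processed liver-channel signal of Feature Extraction, scaled to the 75th percentile of each array. Whether that signal is free of the reference channel was not tested. With it, 6 of the 12 calls in each genotype kept 1 sign on all 3 scales. What lies behind the disagreement was not tested, and the fed and fasted arrays also differed in slides and in the share of spots above background.

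Mttp lay above 0 with fasting on all 3 scales in both genotypes, and in the main fits it passed on the ratio alone. Its log2 ratios in knockouts were 4.72, 4.67, 5.07 and 4.89 when fasted, against 4.09, 3.87 and 3.75 when fed, and in controls 5.04, 4.88, 4.28 and 5.07 when fasted, against 3.21, 3.77 and 3.97 when fed. No fasted array fell below a fed one. The change was 0.93 ± 0.21 in knockouts (adjusted p = 0.00458) and 1.17 ± 0.21 in controls (adjusted p = 0.00102), which is a fold of 1.91 and 2.25. In the liver channel alone it was 0.95 ± 0.36 (adjusted p = 0.0588) and 0.73 ± 0.36 (adjusted p = 0.124), which did not pass. With dim areas missing, the liver-channel change passed in knockouts (0.95, limma, adjusted p = 0.0473) and not in controls (0.73, adjusted p = 0.108). The processed liver signal gave 0.81 in knockouts (adjusted p = 0.0905) and 0.63 in controls (adjusted p = 0.168). With outlier local backgrounds kept, the ratio change was 1.04 in knockouts (adjusted p = 0.263) and -0.66 in controls (adjusted p = 0.474), so the sign turned in controls. In the raw liver channel Mttp read 1535 to 2694 in fasted knockouts, against 547 to 683 in fed knockouts. It read 4416, 2429, 627 and 2775 in fasted controls, against 391, 613 and 721 in fed controls, and fasted control 3, a partly dim array, was the 1 fasted array within the fed range.

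Apoa2 was lower in fasted livers on all 3 scales. Its log2 ratios in knockouts were 6.05, 4.75, 4.60 and 4.81 when fasted, against 6.95, 7.02 and 7.05 when fed. In controls they were 4.28, 4.50, 4.61 and 4.71 when fasted, against 6.95, 6.96 and 6.21 when fed. Fasted and fed arrays did not overlap in either genotype. The ratio fell by 1.96 ± 0.29 log2 units in knockouts (adjusted p = 0.000342) and fell by 2.18 ± 0.29 in controls (adjusted p = 0.00015). The liver channel alone fell by 0.84 ± 0.30 in knockouts (adjusted p = 0.0435), the 1 member call on both scales with the same sign. In controls it changed by -0.64 ± 0.30 and did not pass (adjusted p = 0.0988). With the dim spot of fasted knockout 1 missing, the liver-channel change in knockouts was -0.52 (adjusted p = 0.0573) and that in controls was -0.64 (adjusted p = 0.0141).

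**Figure D4:**
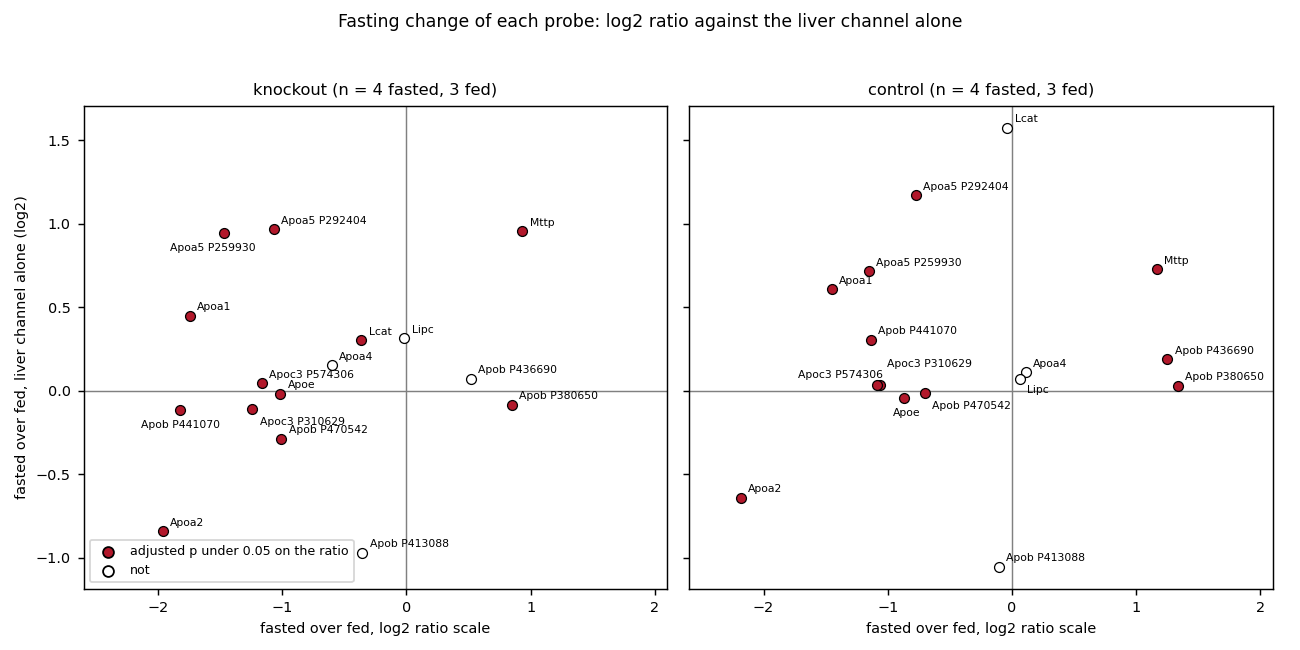
Fasting change (fasted over fed) of each probe on the log2 ratio (x axis) and in the liver channel alone (y axis), in knockouts (left) and controls (right); filled points passed on the ratio. Mttp lies at the upper right and Apoa2 at the lower left of both panels, while Apoa1 and both Apoa5 probes lie at the upper left, lower on the ratio and higher in the liver channel.

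Apoa1 and Apoa5, from the chromosome 9 cluster, read in opposite directions on the main scales. Apoa1 had log2 ratios of 4.89 to 4.94 in fasted against 6.61 to 6.76 in fed knockouts, and of 4.80 to 5.12 in fasted against 6.13 to 6.64 in fed controls. The ratio change was -1.75 ± 0.12 in knockouts (adjusted p = 1.92e-06) and -1.45 ± 0.12 in controls (adjusted p = 7.3e-06). The raw liver intensity went the other way, at 109292, 144900, 208949 and 166888 in fasted knockouts, against 90451, 60489 and 91708 in fed knockouts. The reference channel of the same spots read 10907 to 20068 in fasted knockouts, against 3492 to 5133 in fed knockouts. The liver channel alone changed by 0.45 ± 0.17 in knockouts (adjusted p = 0.0624) and 0.61 ± 0.17 in controls (adjusted p = 0.0124). Apoa5 did the same at both probes, with ratio changes of -1.47 ± 0.12 and -1.07 ± 0.12 in knockouts and liver-channel changes of 0.94 ± 0.20 and 0.97 ± 0.19 (adjusted p = 0.00368 and 0.00178). On the processed liver signal Apoa1 was at -0.38 in knockouts and -0.58 in controls and the Apoa5 probes at -0.56 to 0.28. No direction is therefore given for either gene.

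The other members of the cluster gave no settled fasting change. Both Apoc3 probes were lower on the ratio (-1.24 ± 0.12 and -1.16 ± 0.14 in knockouts, -1.07 ± 0.12 and -1.09 ± 0.14 in controls). Their quantile-normalized liver channel stood near 0, between -0.11 and 0.04. On the processed liver signal both probes were called lower, at -1.03 and -1.06 in knockouts (adjusted p = 0.00278 and 0.0059) and -1.04 and -1.11 in controls (adjusted p = 0.0019 and 0.0033). Apoa4 was not called on any of these scales in either genotype, at -0.60 ± 0.46 in knockouts and 0.11 ± 0.46 in controls on the ratio.

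Apoe, which lies outside this cluster, was lower in fasted livers on the ratio (-1.02 ± 0.15 in knockouts, adjusted p = 0.000354, and -0.87 ± 0.15 in controls, adjusted p = 0.000852). The liver channel alone had the same sign but stood near 0, at -0.02 ± 0.09 in knockouts and -0.04 ± 0.09 in controls, and did not pass. After quantile normalization this reading could hardly move at the rank of Apoe, so no direction is drawn from it. The processed liver signal was called lower, at -1.43 in knockouts (adjusted p = 0.00121) and -1.93 in controls (adjusted p = 0.000123). The raw liver intensity showed no such drop. It read 239975 to 247080 in fasted against 230697 to 249800 in fed knockouts. In controls it read 246952 to 258391 when fasted, against 227418 to 248145 when fed. With each array centred on its median in place of loess, the ratio change was 0.052 in knockouts and 0.070 in controls, so the sign turned and the call was lost.

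The 5 Apob probes, which read the same gene, did not move together. In order along the gene, the ratio changes in knockouts were 0.52 ± 0.21, -0.35 ± 0.15, 0.85 ± 0.31, -1.01 ± 0.17 and -1.82 ± 0.24. In controls they were 1.25 ± 0.21, -0.11 ± 0.15, 1.34 ± 0.31, -0.70 ± 0.17 and -1.13 ± 0.24. Probes A_51_P436690 and A_51_P380650 lay above 0, with calls in controls for both and in knockouts for A_51_P380650, and the last 2, which adjoin each other, were called lower in both. The reference channel was weakest at the rising probes, with adult medians of 160.5 (A_51_P436690) and 144.75 (A_51_P380650) raw units. At the second probe it was 358.25, and at the last 2 it was 645 and 903.75. Whether this bears on the ratio changes was not tested. In the liver channel alone the second probe was the one called, at -0.97 ± 0.22 in knockouts (adjusted p = 0.00542) and -1.05 ± 0.22 in controls (adjusted p = 0.0023), and the other 4 lay between -0.29 and 0.30. No fasting direction is given for Apob as a gene. Apob, Apoa4 and Mttp are also made by enterocytes. The enterocyte markers summed were Fabp2, Vil1, Sis and Lct. Sis and Lct were well above background on no adult array, and 1 of the 8 listed markers was so on every adult array. The sum was 13651 to 30352 intensity units in fasted and 14168 to 16410 in fed knockouts. In controls it was 23167 to 38546 when fasted and 19038 to 22152 when fed. The part of enterocytes in the member values was not tested.

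**Figure D5:**
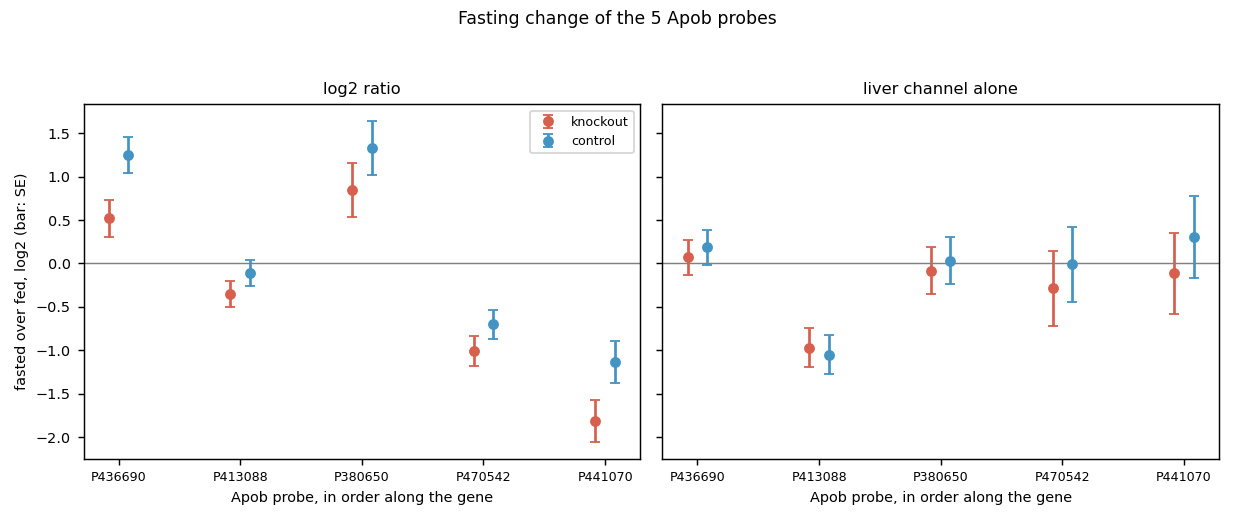
Fasting change (fasted over fed, y axis, with SE) of the 5 Apob probes in order along the gene (x axis), on the log2 ratio (left) and in the liver channel alone (right), in knockouts and controls. On the ratio probes A_51_P436690 and A_51_P380650 are above 0 and the last 2 below 0 in both genotypes, while in the liver channel the second probe lies furthest from 0.

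Among the enzymes that remodel particles, Lcat alone had a fasting call on the ratio. Lipc did not pass on either scale, with ratio changes of -0.02 ± 0.11 in knockouts and 0.07 ± 0.11 in controls. Lcat was called lower on the ratio in knockouts (-0.36 ± 0.13, adjusted p = 0.0382) and not in controls (-0.04 ± 0.13), a difference that did not pass as an interaction. The call was lost without fasted knockout 1 (-0.26, adjusted p = 0.095), without fed knockout 1 (-0.30, adjusted p = 0.131) and without fed knockout 2 (-0.36, adjusted p = 0.0814). In the liver channel its fasted arrays other than knockout 1 read 11725 to 18839, against 1422 to 3354 in fed livers, and with the dim spot missing the liver-channel change was 1.14 in knockouts (adjusted p = 0.00012) and 1.57 in controls (adjusted p = 5.58e-06). Its reference channel read 2118 to 3572 on those fasted arrays, against 362 to 728 on fed arrays.

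Genes that work around the members were read from lists, by the brightest probe of each gene. Of 13 tested other apolipoproteins and lipoprotein-bound proteins, 0 were called on the ratio in newborn, fasted or fed knockouts. In the liver channel alone (limma) Pon1 was called lower in newborn knockouts (-0.91, adjusted p = 0.0129, ratio -0.40). Of 18 partners of lipoprotein assembly, 0 were called in these 3 comparisons. Of 14 lipoprotein receptors and sterol transporters, 1 was called in fasted and in fed knockouts, Vldlr, a receptor for triglyceride-rich particles. Vldlr fell by 1.85 ± 0.17 in fasted knockouts (adjusted p = 0.000107), and the liver channel alone fell by 1.48. It also fell in fed knockouts (adjusted p = 2.19e-05), where it was well above background on 0 of 3 knockout arrays and 3 of 3 control arrays, so no size is given. Of the 8 newborn and 10 adult genes tested among lipases and their regulators, and of the 20 and 21 among transcription factors that act on apolipoprotein genes, 0 were called by genotype on the ratio. Of these factors, Nr1d1 was called higher in newborn knockouts in the liver channel alone (0.91, limma, adjusted p = 0.0185, ratio 0.14).

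Markers of liver zones were read beside them. Of 12 tested pericentral and periportal genes, 5 fell in fasted knockouts, led by Slc1a2 (-3.90 ± 0.18) and Oat (-3.86 ± 0.23), and 3 fell in fed knockouts, Slc1a2, Oat and Glul. In newborns 1 fell, the ammonia transporter gene Rhbg (-3.03 ± 0.26, adjusted p = 0.00224). The liver channel alone (limma) called 5 lower and 1 higher in fasted, 6 lower in fed, and 2 lower and 2 higher in newborn knockouts. Some of these were not called on the ratio. Cyp1a2 was at -2.81 in fasted knockouts (adjusted p = 5.37e-05, ratio 0.06). Cyp2e1 was at -3.46 in fed (adjusted p = 0.000641, ratio -0.66) and -1.91 in newborn knockouts (adjusted p = 0.011, ratio -0.35). Of 10 Kupffer cell markers 1 fell in newborns, Marco (-1.34 ± 0.17, adjusted p = 0.00923), and 9 lay below 0 (median -0.63). On the liver channel alone 4 fell, Marco (-1.14), Cd5l (-1.22), Adgre1 (-0.75) and Vsig4 (-0.82). None of the 10 was called by genotype in adults. The summed intensity of these markers was 33529 to 49353 in newborn knockouts, against 59694 to 87872 in newborn wild types, and its part in the newborn values was not tested. Of 10 immediate early and stress genes, 10 were above 0 in fasted knockouts over controls (median 1.03) and 0 were called. In bulk liver, fewer cells of a type and less RNA per cell cannot be told apart.

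Fasting calls in the lists were as follows. Of 13 other apolipoproteins and bound proteins, 11 were lower and 1 higher in knockouts and 10 lower and 1 higher in controls, and 6 and 4 of these calls had the opposite sign in the liver channel. The smallest p-values were those of Apof and Apoh in both genotypes. Ces1d and Dgat2, enzymes of lipid hydrolysis and triglyceride synthesis, led the assembly partners, both lower on the ratio. Ces1d stood at -0.07 in knockouts and 0.15 in controls in the liver channel, and Dgat2 at -0.22 and -0.61. All 8 hepatocyte markers were lower in both genotypes, with 5 and 6 opposite signs. Assembly partners had 4 higher and 3 lower calls in knockouts and 4 higher and 2 lower in controls, of which 3 in knockouts and 4 in controls had the opposite sign in the liver channel. Receptors and sterol transporters had 3 higher and 6 lower in knockouts and 2 higher and 5 lower in controls (2 and 1 opposite). Lipases and their regulators had 1 higher and 2 lower in knockouts and 3 higher and 2 lower in controls (0 and 1 opposite). Regulators of apolipoprotein genes had 1 higher and 10 lower in knockouts and 1 higher and 7 lower in controls (2 and 3 opposite). The regulator Srebf1, which drives lipid synthesis, fell on both scales, with changes of -2.63 ± 0.26 in knockouts and -2.52 ± 0.26 in controls on the ratio (adjusted p = 2.21e-05 and 2.87e-05) and changed by -2.62 and -2.71 in the liver channel. The lipase inhibitor gene Angptl4 was higher in fasted knockouts on both scales (1.39 ± 0.30, adjusted p = 0.00335, and 1.02 in the liver channel) and in fasted controls (0.89 ± 0.30, adjusted p = 0.0318, and 0.75 in the liver channel). Abcg1, a sterol transporter, was higher in both genotypes on both scales (1.23 ± 0.16 in knockouts and 0.84 ± 0.16 in controls).

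The patterns most like those of the members with the widest spread of adult group means were sought among all genes. For Apoa2 (SD of the 4 group means 1.22), the nearest of 6631 genes over the 14 adult arrays were H2-Q10, Hp, Cyp2d26, Cyp2f2 and Car3, with Pearson correlations of 0.98 to 0.97. For Apoa1 (SD 0.93) they were Azgp1, Trf, Ugt2b36, Rbp4 and Hamp, at 1.00 to 0.99. The arrays share the split into fed and fasted slides, and the correlations are given as a description.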

How the data were processed

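Liver RNA of 22 mice was measured on two-colour Agilent arrays. The deposited array files hold spot intensity values, the median and background signals of each channel without normalization, per the file headers, from Feature Extraction 10.5.1.1 (protocol GE2_105_Dec08); the submitters' processing notes name version 8.5.1.1. The deposited value table holds log10 ratios, equal on all 22 arrays to the ratios in the array files.

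From these, median signals were background-corrected (normexp, offset 50; outlier local backgrounds replaced by the array median), loess normalized within arrays with control spots at weight 0, and turned to log2 of liver over reference. Outlier spots were set to missing and spots of a probe averaged. Probes that cleared background in the liver channel on 4 or more newborn arrays, or on 3 or more adult arrays, were tested with limma 3.58.1 (R 4.3.3), in a newborn fit of 8 arrays and an adult fit of 14 arrays with 4 group means. P-values were Benjamini-Hochberg adjusted over all probes tested, and those under 0.05 were called. They measure the spread between arrays, whose number limits the precision. The liver channel alone was quantile normalized and fitted alike. Errors of changes are SE.

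On simulated data, 69% to 77% of probes changed by 1 log2 unit were recovered over 5 comparisons, and 5% to 9% of the calls were false. The simulated noise was independent between arrays, without a shift by slide or in the reference channel. These rates therefore need not hold for the fasting comparisons. Members, lists and alternatives were chosen with earlier results of these data known. Named genes were all members, Tcf7l2, up to 4 called genes per list and comparison with the smallest adjusted p, and the 5 genes most like each of the 2 members with the widest spread of adult group means; not all list genes so allowed are printed.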

Additional observations from a re-analysis of the deposited data

Results flagged for a closer look

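In 6 of the 62 groups of 4 arrays tested, 1 array lay far from the others by Dixon's criterion, which chance meets in about 1 of 20. Apoa2 in fasted knockout 1 had a log2 ratio of 6.05, beside 4.60 to 4.81 in the other 3, and its spot lay in a dim area. Lcat in fasted knockout 1 had 4.12, beside 4.50 to 4.52, also in a dim area. Apoa5 A_52_P292404 in fasted knockout 2 had 4.42, beside 4.54 to 4.55. Apob A_51_P413088 in fasted knockout 2 had 6.24, beside 6.34 to 6.36. In newborn wild type 1, Apob A_51_P380650 had 0.89, beside 2.52 to 2.80, and Apob A_51_P436690 had 2.12, beside 3.66 to 3.88.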

How the results depend on the processing

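Over 44 alternatives, 161 counts of calls stayed within 1.5 times the value reported and 11 did not. Fasting calls numbered 6 (2 higher, 4 lower) in knockouts and 6 (4 higher, 2 lower) in controls with median centring, against 2 higher and 10 lower in knockouts and 3 higher and 9 lower in controls as reported. They numbered 4 and 4 in the liver channel alone, 6 and 6 there with dim areas missing, and 5 in knockouts and 6 in controls, all lower, on the processed liver signal. With 1 probe per gene the control count was 7. The newborn count was 1 with processed signals of Feature Extraction (Apob A_51_P413088, -0.76). Leaving out 1 array gave 0 to 1 newborn calls (Apoa4 without wild type 2), 0 to 0 fasted, fed and interaction calls, 10 to 12 fasting calls in knockouts and 12 to 12 in controls. The replicate block gave 0 calls by genotype and 12 and 12 with fasting, and changed no count. Deviations of same-numbered samples correlated at 0.50, 0.34, 0.40 and -0.25 in newborns, 0.0047 to 0.092 in fasted and -0.11 to 0.14 in fed mice, and 2 of 8, 1 of 8 and 2 of 6 samples correlated best with their own number, so the numbers were not taken as pairs. Fasting signs turned in 34 values, and the cause was not tested. With median centring these were, in knockouts, Apoe 0.052 and Lcat 0.27, and in controls Apoe 0.070 and Apoa5 A_52_P292404 0.033. With outlier backgrounds kept, controls gave Apob A_51_P380650 -1.10, Apob A_51_P436690 -1.30 and Mttp -0.66, and with processed ratios Apob A_51_P436690 -0.31. In the liver channel, with or without dim areas, knockouts gave Apoa1 0.45, Apoa5 0.97 and 0.94, Apob A_51_P380650 -0.084, Apoc3 A_52_P574306 0.043 and Lcat 0.30 (1.14 without dim areas). Controls gave Apoa1 0.61, Apoa5 1.17 and 0.71, Apoc3 0.034 and 0.032 and Apob A_52_P441070 0.30. On the processed liver signal Apoa5 A_52_P292404 was 0.28 in both genotypes. Mttp ranged from 0.13 to 1.16 in knockouts and Apoa2 from -2.29 to -0.52 in knockouts and -2.43 to -0.64 in controls. No spot was marked saturated, so that alternative was not run.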
